A study of Mus musculus with 6 samples.

Results

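The zyxin and Ajuba LIM proteins were followed in glomeruli, the filtering units of the kidney, of mice that lack dendrin. The family was taken as 7 genes, namely Wtip, Ajuba (Jub in older annotation), Limd1, Zyx, Lpp, Trip6 and Fblim1, and its members were all probe sets that the array annotation assigned to exactly 1 of these genes. This gave 17 probe sets of 7 genes, out of 45101 probe sets and 18194 genes with a probe set of their own. Dendrin-null mice were homozygous for an allele in which a cassette with eGFP and a neomycin-resistance gene took the place of the entire dendrin coding sequence in every cell of the body. Controls were littermates with dendrin intact. Both groups were 13 months old and untreated, with a genetic background labelled as 129S6SvEv/C57BL6, and each held 3 mice with 1 Affymetrix mouse whole-genome array per mouse. According to the methods the line came from targeted embryonic stem cells of that strain, and the mice studied had been backcrossed onto C57BL/6. The sex of the mice was not given in the sources used here.

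Zyxin-family proteins carry 3 LIM domains, zinc-binding protein modules, at their carboxyl end, and move between cell contacts and the nucleus. The zyxin group (Zyx, Lpp and Trip6) sits at focal adhesions and stress fibres and recruits actin assembly factors of the Ena/VASP kind, while the Ajuba group (Ajuba, Limd1 and Wtip) binds LATS kinases and holds back the Hippo pathway, which restrains the coactivators YAP and TAZ. Wtip was first isolated as a partner of the podocyte transcription factor Wt1, and in podocytes, the epithelial cells whose foot processes carry the slit diaphragm, it resides at cell junctions. Dendrin is, like Wtip, a podocyte protein of the slit diaphragm that can enter the nucleus.

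The sequences before the transcript starts are shown because 5 of the 6 family genes with a RefSeq promoter entry hold at least 1 core TEAD element, and TEAD factors are the DNA-binding partners of YAP and TAZ. The capitals mark the letters CATTCC or, where the element lies on the other strand, their reverse complement GGAATG. The promoters of Wtip (GRCm38.p6, chr7:34133269-34133518, minus strand), Ajuba (chr14:54577662-54577911, minus strand) and Trip6 (chr5:137314242-137314491, minus strand) are given as the 250 bases before the start, and Fblim1 (chr4:141606106-141606135, minus strand) as the stretch around its element.
Wtip: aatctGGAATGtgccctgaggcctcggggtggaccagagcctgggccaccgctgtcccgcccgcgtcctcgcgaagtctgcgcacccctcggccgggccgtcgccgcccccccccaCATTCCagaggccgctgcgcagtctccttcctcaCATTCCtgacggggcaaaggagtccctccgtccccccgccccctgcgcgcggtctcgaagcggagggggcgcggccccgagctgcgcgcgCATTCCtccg
Ajuba: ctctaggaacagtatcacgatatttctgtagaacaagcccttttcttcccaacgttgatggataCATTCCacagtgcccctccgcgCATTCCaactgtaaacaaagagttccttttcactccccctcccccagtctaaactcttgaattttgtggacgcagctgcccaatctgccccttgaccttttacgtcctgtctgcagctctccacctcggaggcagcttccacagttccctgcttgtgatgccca
Trip6: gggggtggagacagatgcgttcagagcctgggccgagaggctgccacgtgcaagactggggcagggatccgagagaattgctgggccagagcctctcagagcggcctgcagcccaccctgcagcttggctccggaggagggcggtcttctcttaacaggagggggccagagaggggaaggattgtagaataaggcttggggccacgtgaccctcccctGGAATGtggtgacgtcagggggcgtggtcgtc
Fblim1: ctgtgagtcagaCATTCCgtgcagctcagt

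The letters CATTCC occurred on either strand in 12.6% of 32851 RefSeq windows of this length, and in 5 of the 8 family windows. The elements were chosen after the family promoters had been read, so the shares given here are a description and not a test. Wtip held 4 copies, which began 245, 134, 100 and 10 bases before the start. Only 4 of the 32851 windows, or 0.0122%, held 4, and no window held more. Ajuba held 2 copies, 186 and 164 bases before the start, and 1.02% of windows held at least 2. Trip6 had 1 copy at 32 bases, Fblim1 had 1 copy at 71 bases before the first of its 2 starts, and Lpp had 1 copy at 182 bases before the second of its 2 starts. In the Zyx window these letters were not found. Of 4 other elements searched on both strands, the E-box CACGTG (6.02% of windows) occurred 2 times before Trip6, at 206 and 48 bases, and the cAMP response element TGACGTCA (1.55% of windows) 1 time, at 23 bases. The CArG box (1.47%) and the WT1 element (GCGTGGGAG or GCGTGGGCG, 0.925%) had no match in the 8 family windows. The matches did not overlap each other. These are matches of letters and say nothing of binding. Limd1 had no entry in the promoter table.

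**Figure D1:**
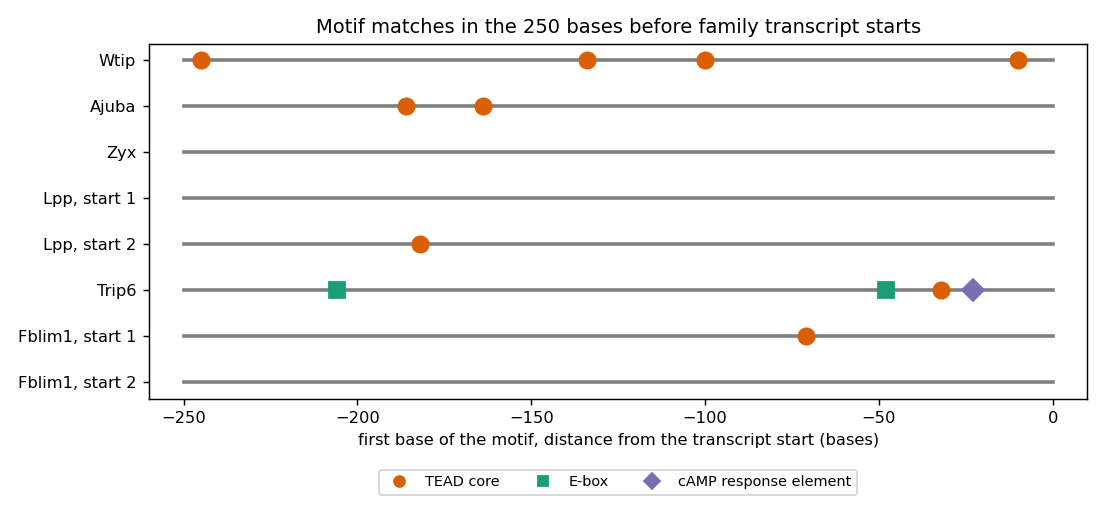
Positions of the matched elements in the 250 bases before each transcript start of 6 family genes (x axis, bases from the start; 1 row per start; symbols, kind of element). The row of Wtip carries 4 core TEAD elements and that of Zyx none.

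All values below are GCRMA values on a log2 scale, and each difference is knockout minus control with its limma standard error (SE). GCRMA levels of different probe sets were not set against each other. A probe set with a mean under log2 4 over the 6 arrays was called dim. As a check of the genotype, the Ddn probe set read 3.80, 3.81 and 3.80 in knockout mice 1, 2 and 3, against 12.22, 12.81 and 12.31 in control mice 1, 2 and 3. The difference was -8.64 (SE 0.18, limma with Benjamini-Hochberg adjusted p = 0.0197), and Ddn was the only probe set of the 45101 past an adjusted p of 0.05. With 1 mouse left out, Ddn kept this adjusted call only where that mouse was control mouse 2, and its difference stayed between -8.76 and -8.46. Where its probes lie relative to the replaced sequence was not given in the sources used here.

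The material carried glomerular markers: 10 of 10 measured podocyte genes and 12 of 12 glomerular endothelial genes were not dim. Correlations between arrays lay between 0.973 and 0.995 over probe sets that were not dim. The array of control mouse 2 stood apart. Its leukocyte genes had a median deviation of -2.28 from the 6-array means, and its distal nephron genes (loop, distal tubule, collecting duct) one of 2.16. Values without this array, an alternative chosen after seeing the data, are given beside the members' values. Glomeruli hold several cell types, so that in these bulk samples fewer cells of a type and less RNA per cell cannot be told apart.

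Transcripts of the family differed little between the genotypes. None of the 17 probe sets passed the criterion of the study's methods, a fold above 1.5 in either direction with an unadjusted p under 0.05, by limma or by SAM (Significance Analysis of Microarrays), whereas 0.18% of all probe sets passed it by limma. None passed a Benjamini-Hochberg adjusted p of 0.05 in limma, against 0.00222% of all probe sets, and the lowest adjusted p in the family was 1. At an unadjusted p under 0.05 there were 2 of 17 probe sets by limma, of which 1 was dim, and 2 by SAM. Of all probe sets that were not dim, 4.91% were higher and 3.21% lower at such a limma p. The share with the dim probe sets included, and that by SAM, were not computed. The largest fold among the 14 probe sets that were not dim was 1.29, for Fblim1, and 98.2% of all such probe sets on the array lay within 1.5-fold. For 5 of the 7 genes the 95% interval of the main probe set, the one with the highest mean, lay within 1.5-fold in both directions, and for Zyx and Fblim1 it did not.

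**Figure D2:**
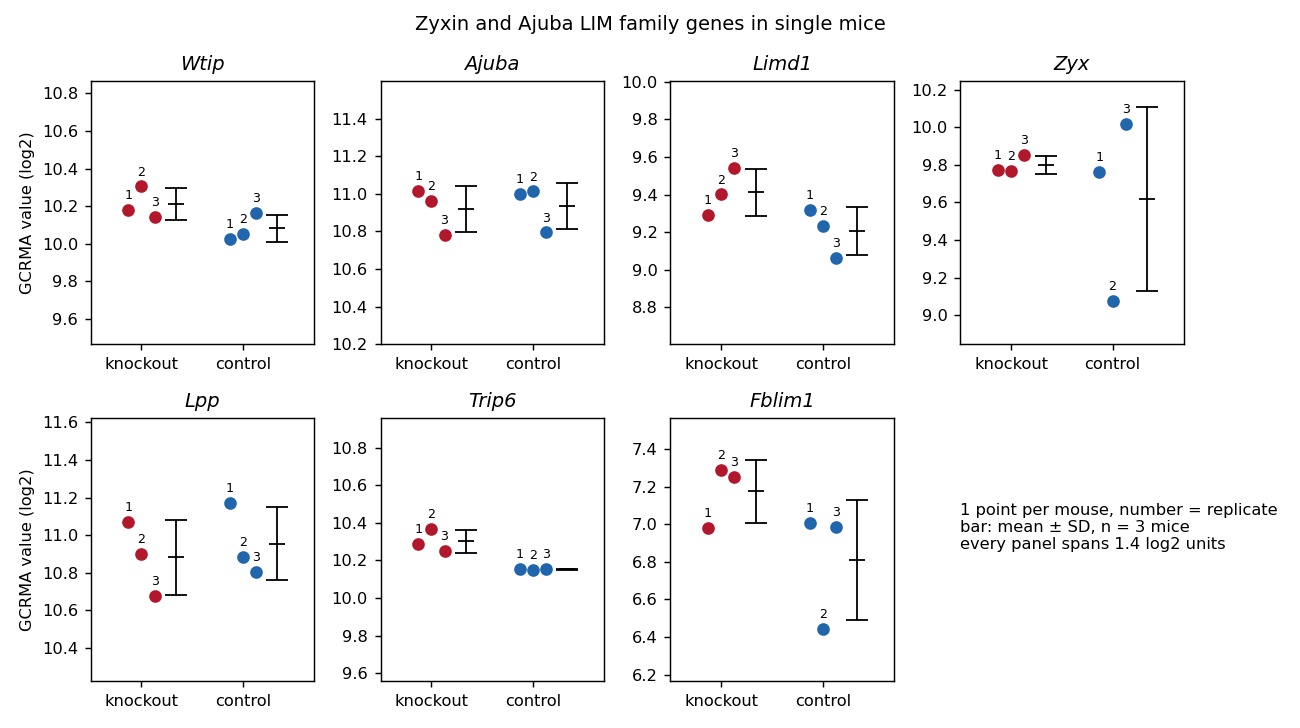
GCRMA value (log2, y axis, each panel spanning the same range) of the main probe set of each family gene in 3 knockout mice (red, left) and 3 control mice (blue, right), with bars for mean ± SD. The groups do not overlap for Trip6, and control mouse 2 is lowest for Zyx (9.07) and Fblim1 (6.44).

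Among the Ajuba group, Wtip was measured by 1 probe set (1433651_at). It read 10.18, 10.31 and 10.14 in knockout mice and 10.03, 10.05 and 10.16 in control mice. Knockout mouse 2 was the highest of the 6, and knockout mouse 3 lay just below control mouse 3, so the groups overlapped. The means were 10.21 ± 0.084 in knockout mice and 10.08 ± 0.073 in control mice (SD, n = 3 each). The difference of 0.13 (SE 0.062, 95% interval -0.039 to 0.30) had an exact two-sided permutation p of 0.2, where 3 mice against 3 allow no p below 0.1. As a fold the interval spans 0.973 to 1.23. Without control mouse 2 the difference was 0.11.

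Ajuba, a scaffold at cadherin contacts that also supports Aurora A kinase in mitosis, gave 11.02, 10.96 and 10.78 (1421344_a_at) in knockout mice, against 11.00, 11.01 and 10.79 in control mice. The 2 sets of values nearly coincided, with mouse 3 lowest in each group. The difference was -0.016 (SE 0.096, 95% interval -0.28 to 0.24). Its sign was positive, at 0.0032, once each array was centred on its median, and at 0.022 without control mouse 2.

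Limd1, a scaffold that takes part in hypoxic degradation of Hif1a and in microRNA silencing, had 2 probe sets. The main one (1422731_at) read 9.29, 9.40 and 9.54 in knockout mice, against 9.32, 9.23 and 9.06 in control mice. Knockout mice 2 and 3 were above every control mouse, while knockout mouse 1 was below control mouse 1. The difference was 0.21 (SE 0.10, 95% interval -0.065 to 0.48, exact two-sided permutation p = 0.2). The other (1422730_at) read 7.53, 7.66 and 7.90 in knockout mice and 7.54, 7.54 and 7.73 in control mice, a difference of 0.096 (SE 0.12). Both pointed the same way, and the groups overlapped in both.

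Trip6, an adaptor of the zyxin group, binds the lysophosphatidic acid receptor Lpar2 and the polarity protein Scrib. Its probe set (1449041_a_at) read 10.29, 10.37 and 10.25 in knockout mice, against 10.15, 10.15 and 10.15 in control mice. All 3 knockout mice lay above all 3 control mice. The means were 10.30 ± 0.060 in knockout mice and 10.15 ± 0.0016 in control mice (SD, n = 3 each), so the control values spread far less. Control mice 1 and 3 had the same value, 10.1536, and control mouse 2 had 10.1509. The SE and limma p below draw on this narrow control spread, whose cause was not tested. The difference was 0.15 (SE 0.033, 95% interval 0.059 to 0.24), a 1.11-fold higher value in knockout mice with an interval of 1.04 to 1.18. It had a limma p of 0.0095 before and 1 after adjustment over 45101 probe sets, and the exact permutation p was 0.1, the smallest this design allows. Without control mouse 2 the difference was 0.15 with an unadjusted limma p of 0.0349. Trip6 was the only one of the 14 family probe sets that were not dim with an unadjusted p under 0.05 in the higher direction, where 4.91% of all such probe sets stood. It was likewise the only one whose groups did not overlap, against 8.03% of all such probe sets in that direction. None of the 14 was lower by either measure, against 3.21% by p and 5.65% by non-overlap.

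Zyx, which delivers Ena/VASP proteins to strained stress fibres, depended on 1 control mouse. Probe set 1417240_at read 9.77, 9.77 and 9.85 in knockout mice and 9.76, 9.07 and 10.02 in control mice. Control mouse 3 was the highest and control mouse 2 by far the lowest of the 6, so that the knockout values lay inside the control range. The means were 9.80 ± 0.048 in knockout mice and 9.62 ± 0.49 in control mice (SD, n = 3 each). The difference of 0.18 (SE 0.27, 95% interval -0.55 to 0.91) turned to -0.092 (SE 0.096) without control mouse 2. The second Zyx probe set (1438552_x_at) was dim: it read 3.65, 3.55 and 3.53 in knockout mice and 3.48, 3.41 and 3.38 in control mice, a difference of 0.15 (SE 0.048) with groups that did not overlap. Both readings of Zyx were thus positive with all 6 arrays, yet they parted in sign without control mouse 2.

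Lpp, a zyxin relative that is abundant in smooth muscle, was covered by 8 probe sets, of which 2 were dim. The main one (1436714_at) read 11.07, 10.90 and 10.68 in knockout mice and 11.17, 10.88 and 10.81 in control mice. Mouse 1 was the highest in each group and the groups overlapped throughout. The difference was -0.073 (SE 0.15, 95% interval -0.49 to 0.34). Over the 6 probe sets that were not dim, 3 differences were positive and 3 negative, between -0.26 and 0.034, and control mouse 1 gave the highest value in 4 of them. That even split rested on control mouse 2: without it all 6 differences were negative, between -0.36 and -0.016, and that of the main probe set was -0.11. The most negative, 1438271_at, read 7.80, 7.74 and 7.45 in knockout mice, against 7.97, 7.73 and 8.07 in control mice, a difference of -0.26 (SE 0.14). The other 4 differed by 0.028 (SE 0.11, 1455314_at), 0.017 (SE 0.12, 1454899_at), -0.042 (SE 0.058, 1440167_s_at) and 0.034 (SE 0.17, 1437235_x_at), and the dim ones by 0.053 (1425673_at) and 0.0025 (1446698_at). No Lpp probe set separated the genotypes. Of 12 smooth muscle and mesangial markers, 8 were not dim and their median difference was 0.070, with Cnn1, Actg2, Lmod1 and Myocd dim on these arrays.

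Fblim1 (migfilin), which links filamin to kindlin-2 at integrin adhesions, had the largest difference of the family. Its main probe set (1449141_at) read 6.98, 7.29 and 7.25 in knockout mice and 7.01, 6.44 and 6.99 in control mice. Knockout mouse 1 lay below control mice 1 and 3, and control mouse 2 was the lowest. The difference was 0.36 (SE 0.20, 95% interval -0.18 to 0.91, exact two-sided permutation p = 0.3), and 0.18 without control mouse 2. The other probe set (1418569_at) read 6.96, 7.05 and 6.83 in knockout mice and 6.87, 6.45 and 6.87 in control mice, a difference of 0.22 (SE 0.15), and 0.082 without control mouse 2. Both had the same lowest array, and the groups overlapped in both.

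**Figure D3:**
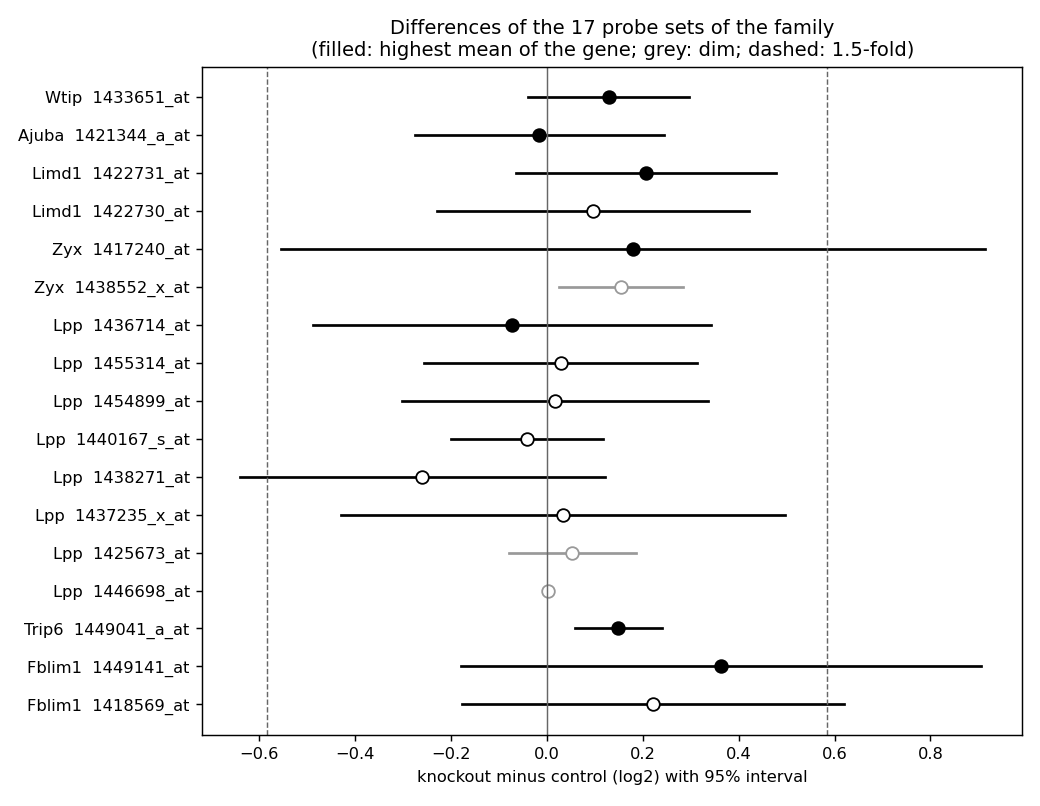
Knockout minus control difference (log2, x axis) with its 95% limma interval for the 17 probe sets of the family; filled points are the main probe set of a gene, grey points are dim and dashed lines mark 1.5-fold. Every point lies inside 1.5-fold, as do 98.2% of all probe sets that were not dim. Apart from a dim Zyx probe set, the Trip6 interval (0.059 to 0.24) is the one that leaves out 0.

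Across the family, 5 of 7 genes were higher in knockout mice by their main probe set and 2 were lower; after median centring of the arrays 6 were higher and 1 lower, since Ajuba turned. The median difference of the 7 genes was 0.15, and that of the 14 probe sets 0.065, against 0.015 over all 19619 probe sets that were not dim. Of these 14 probe sets, 10 were higher and 4 lower in knockout mice, but without control mouse 2 the counts were 7 and 7, the median of the 14 was 0.0032 against 0.016 over all such probe sets, and the median of the 7 genes was 0.11. The median size of a difference, whatever its sign, was 0.11 in the family and 0.090 over all such probe sets. Control mouse 2 gave the lowest value in 5 of the 14, which belonged to 4 genes.

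Zyx and Fblim1 were low on the array on which leukocyte genes were low and tubule genes high. Over the 6 arrays Zyx had a Pearson r of 0.98 with the median deviation of the leukocyte list and -0.98 with that of the proximal tubule list. Fblim1 had 0.81 and -0.69 with these lists. With the loop, distal tubule and collecting duct list Zyx had -0.94 and Fblim1 -0.89. Control mouse 2 deviated most in the 3 lists (-2.28, 0.94 and 2.16), and r with the lists was not computed without it. Of the 12 leukocyte genes, 10 were not dim, with Cd3e and Cd79a dim. Summed levels here are the log2 of the unlogged values added over all measured genes of a list, dim ones included. The brightest probe sets weigh most in such a sum. For the leukocyte list the summed level lay between 14.37 and 15.17 in knockout mice and between 12.76 and 15.12 in control mice. Of 12 genes of the loop, the distal tubule and the collecting duct, 9 were measured and 5 not dim, with a summed level of 11.48 to 11.95 in knockout mice and 11.49 to 13.71 in control mice, and Aqp2, Aqp3, Scnn1g and Pvalb dim. The part of leukocyte and tubule RNA in the Zyx and Fblim1 values was not tested. Trip6 had an r of 0.22 with the leukocyte list and 0.58 with the podocyte list, and Wtip 0.31 and 0.36. Podocyte genes summed to 16.84 to 16.92 in knockout mice and 16.68 to 16.98 in control mice, and all 10 were higher in knockout mice, by 0.012 to 0.24, none with an unadjusted limma p under 0.05. With the smooth muscle and mesangial list Trip6 had an r of 0.75 and Wtip one of 0.34. Those genes summed to 15.34 to 15.42 in knockout mice and 15.29 to 15.41 in control mice. Glomerular endothelial genes lay the other way: 9 of 12 were lower in knockout mice and 3 higher. Of the 9, 4 (Kdr, Flt1, Tek and Emcn) had an unadjusted limma p under 0.05 and groups that did not overlap. Of the 3, Sost at 0.70 had such a p. Of all probe sets that were not dim, 3.21% were lower and 4.91% higher at such a p, and 5.65% were lower without overlap. None of the 12 endothelial genes had an adjusted p under 0.05. The 12 summed to 16.08 to 16.17 in knockout mice and 16.15 to 16.25 in control mice. With the endothelial list Limd1 had an r of -0.75, Trip6 -0.44 and Wtip -0.0045. Limd1 had 0.68 with the smooth muscle and mesangial list and 0.56 with the podocyte list. The part of podocyte, mesangial and endothelial RNA in these values was not tested. These correlations describe 6 arrays of both genotypes that share 1 normalization.

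**Figure D4:**
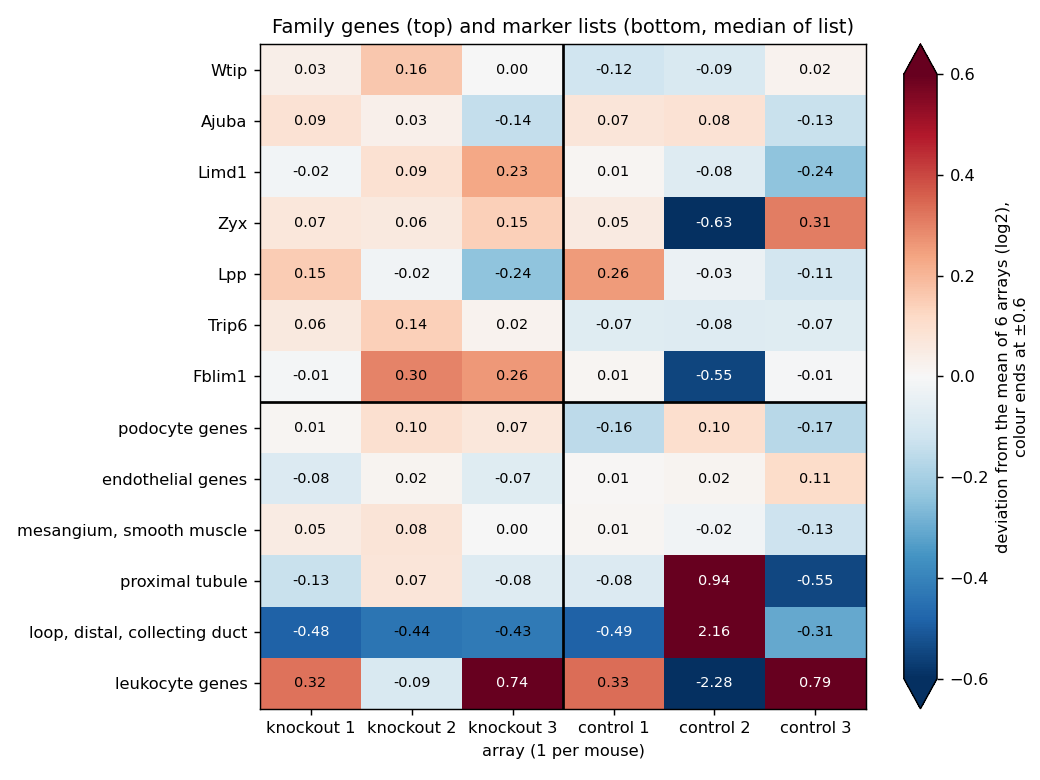
Deviation from the mean of the 6 arrays (log2, colour, with its value in each cell) for the main probe set of each family gene and the median of each marker list, 1 column per mouse with knockout mice on the left. The column of control mouse 2 holds the extreme values of the leukocyte and tubule lists, such as -2.28 for leukocyte genes, beside the low Zyx and Fblim1.

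The probe sets whose pattern over the 6 arrays was most like that of Wtip were sought among 5016 that were not dim and spanned more than 0.5. The 5 closest were of Usp53 (r = 0.97), Slc22a23 (0.96), Mmp3 (0.96), Pomt1 (0.96) and Ccl27a (0.96). Knockout mouse 2 was the highest array for each of them, as for Wtip itself. Without control mouse 2 their r lay between 0.95 and 0.99. For Zyx, the member with the widest range, the closest were of Slc7a7 (0.9997), Pid1 (0.99), Fcgr2b (0.99), Cd300lb (0.99) and Rassf4 (0.99). Fcgr2b is an Fc receptor of B cells and macrophages, and Cd300lb a receptor of myeloid cells. Each had its lowest value on control mouse 2 and its highest on control mouse 3, and without control mouse 2 their r lay between 0.94 and 0.997. These r values were the highest of many over 6 arrays of both genotypes and are given as a description.

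Genes that work with the family were then read from 5 lists, by the highest probe set of each gene and beside the same backgrounds. In limma, none of their genes had a Benjamini-Hochberg adjusted p under 0.05. Partners of the zyxin group had 14 of 19 measured genes that were not dim; 13 were higher and 1 lower in knockout mice, and 3 had an unadjusted p under 0.05, all higher, against 4.91% of all probe sets that were not dim. Their median difference was 0.094. Without control mouse 2 the counts were 9 higher, 5 lower, and 2 with such a p, all higher. These 2 were 14.3% of the list, against 8.69% of all probe sets that were not dim in the same setting. The actin crosslinker Actn1 differed by 0.20 (SE 0.093), Scrib by 0.17 (SE 0.063), the focal adhesion protein Lasp1 by 0.16 (SE 0.082) and Palld, an actin bundler, by 0.16 (SE 0.13). Scrib, the Trip6 partner, read 7.45, 7.66 and 7.52 in knockout mice and 7.42, 7.35 and 7.35 in control mice, without overlap. The other 2 genes with such a p, named after their values were seen, were Actn4, the podocyte alpha-actinin, at 0.15 (SE 0.053), and Fermt2 (kindlin-2, the partner of migfilin) at 0.13 (SE 0.021). Fermt2 read 12.94, 12.89 and 12.89 in knockout mice and 12.76, 12.81 and 12.77 in control mice, a small and even difference.

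Partners of the Ajuba group divided more evenly, with 11 of 18 genes higher and 7 lower and a median of 0.033. Cdh1 (E-cadherin) differed by -0.86 (SE 0.91), which rested on 1 array: it read 5.17, 5.32 and 5.32 in knockout mice and 5.07, 8.001 and 5.32 in control mice, and 0.078 was the difference without control mouse 2. Wt1, the partner of Wtip, read 12.51, 12.58 and 12.70 in knockout mice and 12.32, 12.61 and 12.36 in control mice, a difference of 0.16 (SE 0.10). Sqstm1, an autophagy receptor, differed by 0.12 (SE 0.071) and Snai2, a repressor of epithelial genes, by -0.12 (SE 0.18). The only one of the 18 with an unadjusted limma p under 0.05 was Ago2, the slicer of microRNA silencing, at 0.11 (SE 0.031). It was named after its values were seen. Of all probe sets that were not dim, 4.91% were higher at such a p, so 1 of 18 is near that share.

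Of the Hippo core, 12 of 13 measured genes were not dim, 7 higher and 5 lower, with a median of 0.053. Wwtr1, which encodes TAZ, was the only one with an unadjusted p under 0.05 (0.0415, limma, adjusted p = 1), and it was lower, where 3.21% of all probe sets that were not dim stood. It read 11.76, 11.70 and 11.68 in knockout mice and 11.86, 11.77 and 11.91 in control mice, a difference of -0.13 (SE 0.045) with groups that did not overlap, against 5.65% of all such probe sets in that direction. Mob1a, named after its values were seen, was also without overlap but higher, at 0.093 (SE 0.037), against 8.03% of all such probe sets in that direction. Tead1 differed by 0.22 (SE 0.10), Tead3 by -0.13 (SE 0.083) and the kinase gene Stk4 by 0.10 (SE 0.055), none with an unadjusted p under 0.05. Known target genes of YAP showed no common direction: 6 of 14 were higher and 8 lower, with a median of -0.021, and none had an unadjusted p under 0.05. The secreted matrix protein gene Ccn1 read 9.86, 9.90 and 8.71 in knockout mice and 9.31, 10.22 and 10.67 in control mice, a difference of -0.58 (SE 0.53). Ankrd1 differed by 0.30 (SE 0.65), Amotl2 by -0.26 (SE 0.23) and F3 by -0.24 (SE 0.35).

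Of the other LIM genes of the cytoskeleton, 16 of 21 were higher and 5 lower, with a median of 0.16 beside 0.15 for the 7 family genes; without control mouse 2 these medians were 0.090 and 0.11. Of these, 5 had an unadjusted p under 0.05, all higher, and the same number had groups that did not overlap; the background was 4.91% and 8.03%. Without control mouse 2 there were 15 higher and 6 lower, and 7 had such a p, or 33.3% of the list against 8.69% of all probe sets that were not dim. Ablim3, an actin-binding LIM protein, was, with all 6 arrays, the only gene of the 5 lists past 1.5-fold with an unadjusted p under 0.05. It read 8.85, 8.93 and 8.47 in knockout mice and 8.02, 8.21 and 7.93 in control mice. Every knockout mouse lay above every control mouse, by a difference of 0.69 (SE 0.16), or 1.62-fold, with a limma p of 0.0095 before and 1 after adjustment. Beside it, the smooth muscle marker Tagln, 1 of 8 smooth muscle and mesangial genes that were not dim, passed the same criterion at 0.68 (SE 0.24). The median of those 8 was 0.070, with Acta2 at 0.44, Myh11 at 0.41, Mylk at 0.10, Des at 0.036, Gata3 at 0.014, Itga8 at -0.00031 and Pdgfrb at -0.053. Their part in the Ablim3 value was not tested. The other 4 were named after their values were seen: Lims2 (PINCH2, of the integrin-linked kinase complex) at 0.28 (SE 0.071), Pdlim2 at 0.28 (SE 0.053), Pdlim5 at 0.26 (SE 0.056) and the focal adhesion scaffold Pxn (paxillin) at 0.17 (SE 0.038). Pxn read 11.56, 11.57 and 11.67 in knockout mice and 11.43, 11.45 and 11.41 in control mice. Larger but uneven differences were those of Pdlim4 at 0.69 (SE 0.66), Lpxn at 0.47 (SE 0.65) and Pdlim3 at 0.44 (SE 0.39). Leaving out each mouse in turn gave 0.17 to 1.33 for Pdlim4, which passed the criterion without control mouse 1, and 0.12 to 0.81 for Pdlim3, which passed it without control mouse 2. Lpxn (leupaxin), a paxillin relative of leukocytes, read 6.39, 6.10 and 6.81 in knockout mice and 6.39, 4.71 and 6.80 in control mice, and the difference was -0.16 without control mouse 2.

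**Figure D5:**
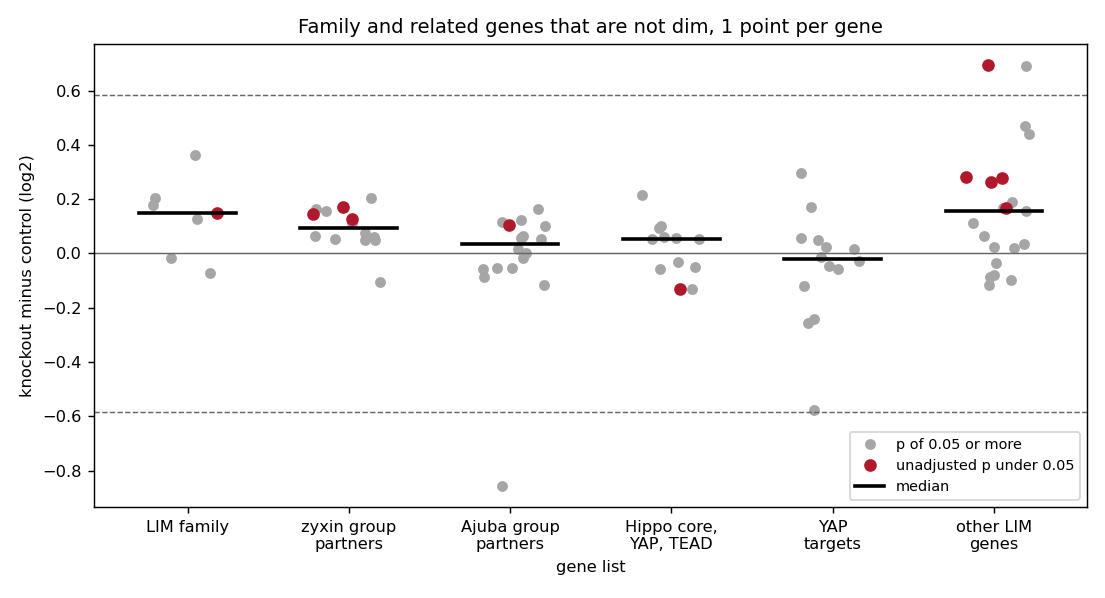
Knockout minus control difference (log2, y axis) of each gene that was not dim in the family and the 5 related lists (x axis); red points have an unadjusted limma p under 0.05 and bars mark medians. The medians lie between -0.021 for YAP targets and 0.16 for the other LIM genes, and Ablim3 is the highest red point at 0.69.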

How the data were processed

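Glomeruli of 3 dendrin knockout and 3 littermate control mice were hybridized to 1 array each. The authors normalized the raw intensities with GCRMA (gcrma version 2.30.0, which corrects background, applies quantile normalization and summarizes probes), and the deposited values are log2 intensities of 45101 probe sets. Raw intensities were not used here. The number of arrays limits the precision.

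Arrays were grouped by their genotype label. Knockout and control were compared with limma 3.58.1 (R 4.3.3), lmFit and eBayes, two-sided, on all probe sets without filter or covariate, with Benjamini-Hochberg adjustment over all of them. Residual degrees of freedom were 4 and the prior 0.312, with 16139 probe sets constant over the arrays. SAM, the test of the study's methods, was rewritten as an alternative, with 20 permutations. Exact permutation tests over the 6 arrays served single values. Code was tested on simulated data. Genes were represented by the probe set with the highest mean among those of that gene alone, and genes at a mean under log2 4 were called dim and left out of list counts.

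All members are named with every probe set. Of each related list, the 4 genes with the largest difference that were not dim are named, and for likeness the 5 probe sets with the highest Pearson r. The members and lists were chosen with earlier results of these data known, and the motifs after the promoter sequences had been read. Promoters are from RefSeq (GRCm38.p6), with 6 of 7 genes matched. Alternatives were other filters, scalings, tests, array weights, the replicate block and leaving out each mouse.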

Additional observations from a re-analysis of the deposited data

How the results depend on the processing

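No family probe set passed the criterion or an adjusted p of 0.05 under any alternative run. For SAM the adjusted p was no test of this. Its 20 permutations include the true grouping and its mirror image, so no probe set could fall below 0.1. Of 253 values of single family probe sets, 234 kept direction and side of the threshold, 19 changed sign and none gained a call. Ajuba turned to 0.0032 with median centring, which raised all differences by 0.019. With array weights (0.373 for control mouse 2, up to 1.52) Lpp turned to -0.080 (1437235_x_at), -0.062 (1454899_at) and -0.038 (1455314_at), and Ankrd1 to -0.034. The 17 family probe sets included 2 without overlap, 1 with a mean filter at log2 4 or 6, and 4 with median centring or a second quantile normalization. As deposited, 8.03% of all probe sets that were not dim were higher without overlap and 5.65% lower. The shares after centring or the second normalization were not computed. Ddn stayed at -8.64 but lost its adjusted call with the replicate block (limma, adjusted p = 0.461). By SAM its adjusted p was 0.1, the lowest that SAM could give here, so that lost call was fixed in advance.

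Leaving out each mouse in turn gave ranges of -0.087 to 0.053 for Ajuba, -0.0068 to 0.18 for Limd1 (1422730_at), -0.17 to 0.037 for Lpp (1436714_at), -0.075 to 0.19 (1437235_x_at), -0.055 to 0.13 (1454899_at), -0.031 to 0.13 (1455314_at), -0.092 to 0.38 for Zyx (1417240_at), -0.17 to 0.66 for Ankrd1, -1.39 to 0.078 for Cdh1, -0.52 to 0.054 for F3, -0.16 to 0.89 for Lpxn and -8.76 to -8.46 for Ddn, whose adjusted call was lost in 5 of these 6 settings and kept without control mouse 2. The count without overlap ranged from 2 to 6, and other LIM genes past the criterion from 1 to 2. These settings have fewer arrays, and non-overlap is then more common on the whole array. Without control mouse 2, 6307 of all 19619 probe sets that were not dim had groups apart, beside 2 of 14 in the family. Other causes were not tested.

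The replicate numbers were not treated as pairs. Deviations of same-numbered knockout and control mice correlated at 0.0949, 0.352 and 0.248, each the best match of its mouse. For number 1 the margin was small. Control mouse 1 had 0.0943 with knockout mouse 3, and knockout mouse 1 had 0.0643 with control mouse 3. Such a match is a hint from the data and not from the design. With the replicate block 64 in place of 81 of all probe sets passed the criterion, none of the family, and Trip6 kept 0.15 with an unadjusted limma p of 0.0352. With 3 mice a group, intervals of Zyx and Fblim1 reach beyond 1.5-fold.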
